A study of Mus musculus with 4 samples.

Results

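Regulatory T cells (Tregs) that carry transcripts of the chemokine receptor gene Cxcr3 were picked out of single-cell libraries of mouse lung CD4 T cells. The cells were selected on their own measured transcripts. A cell was a member when it held at least 1 unique molecular identifier (UMI, a count of 1 captured transcript molecule) of Foxp3, at least 1 UMI of Cxcr3 and 0 UMIs of Il1rl1. There were 438 such cells among 14217 kept cells, 433 of 7135 in the tumor-lung library and 5 of 7082 in the normal-lung library. They are called Cxcr3-positive Tregs here and are set against the Foxp3-positive cells with 0 Cxcr3 UMIs of the same library, 657 in the tumor-lung library and 197 in the normal-lung library, called Cxcr3-zero Tregs. The tumor-lung cells came from C57BL/6 mice killed 3 weeks after TC1 cells, a mouse lung tumor line, were injected into the tail vein, and the normal-lung cells came from age-matched C57BL/6 mice without tumors. Live CD4-positive cells were sorted from digested lung, and each suspension gave 1 gene expression library and 1 T cell receptor library read from the 5′ end. The numbers of mice, their age and whether animals were pooled are not given in the labels.

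Foxp3 encodes the transcription factor that defines Tregs, the CD4 T cells that restrain other immune cells. CXCR3 is the receptor for the interferon-induced chemokines CXCL9 and CXCL10. It is best known from Th1 cells, the interferon-gamma-producing helper T cells governed by the transcription factor T-bet (Tbx21), and Tregs that take up T-bet and CXCR3 are known to gather at sites of Th1 inflammation. Il1rl1 encodes ST2, the receptor for the alarmin IL-33, which marks another tissue Treg state, so the rule sets these cells apart from ST2-positive Tregs.

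Kept cells held 31921001 UMIs in the tumor-lung library and 28084248 in the normal-lung library, with medians per cell of 4173 in the tumor-lung library and 3906 in the normal-lung library. With 1 library per tissue and with cells that are not replicates, no test was possible, and the intervals given are 95% intervals that cover counting error only. They treat molecules of the same cell, and cells of the same clone, as independent, which they are not. Any batch difference between the libraries and the tissue difference cannot be told apart. The libraries shared 86 cell barcode sequences, 4 of them among the Cxcr3-positive Tregs.

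Cxcr3-positive Tregs were 37.8% of the Foxp3-positive cells of the tumor-lung library (433 of 1147, 34.9 to 40.6, exact Clopper-Pearson interval) and 2.43% of those of the normal-lung library (5 of 206, 0.793 to 5.57). As a share of all kept cells they made up 6.07% in the tumor-lung library and 0.0706% in the normal-lung library. The rule used these genes, so the shares describe the gate. In the tumor-lung library a Cxcr3 UMI was found in 42.7% of Foxp3-positive cells (39.8 to 45.6) and 6.05% of Foxp3-zero cells (5.46 to 6.68), at median depths of 4725 and 4112 UMIs. In the normal-lung library the shares were 4.37% of Foxp3-positive cells (2.02 to 8.13) and 3.21% of Foxp3-zero cells (2.81 to 3.66), with overlapping intervals. In naive-type cells (Ccr7 and a further naive-cell gene present, Il2ra and Cd44 at 0), which should lack the receptor, it was found in 0.780% of tumor-lung and 0.242% of normal-lung cells, at median depths of 4272 and 4015 UMIs. With every cell thinned to 2417 UMIs before the gate was applied, 24.9% of Foxp3-positive tumor-lung cells (221 of 889, 22.0 to 27.8) and 2.76% of normal-lung ones (4 of 145, 0.757 to 6.91) passed.

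**Figure D1:**
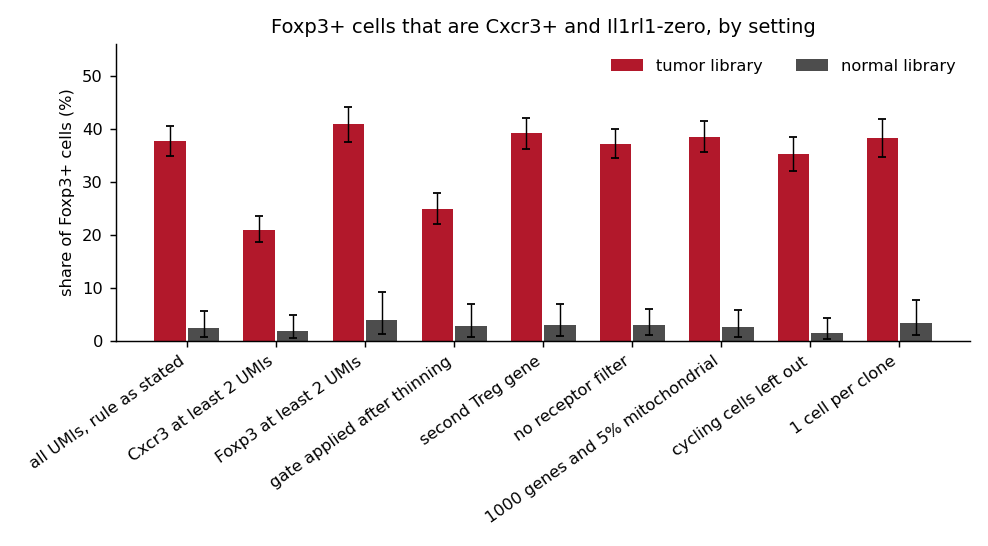
Share of Foxp3-positive cells that were Cxcr3-positive and Il1rl1-zero (percent, bars) in the tumor-lung library and the normal-lung library under the stated rule and each alternative, with exact 95% Clopper-Pearson intervals as whiskers. The tumor-lung bars lie between 21.0% and 40.8% and the normal-lung bars between 1.54% and 4.03%.

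Most cells near the edge of the gate carried few molecules. Of the 433 tumor-lung members, 192 held 1 Cxcr3 UMI, 98 held 2 and 143 held 3 or more, with a highest value of 14. Foxp3 was better covered, with 307 members at 3 or more UMIs and 67 at a single one. Just outside the gate lay 57 cells with Foxp3, Cxcr3 and Il1rl1 together, 36 of them with a single Il1rl1 UMI. Every one of the 433 members, against 93.8% of Cxcr3-zero Tregs, also held a UMI of Ikzf2, Il2ra or Ctla4, further Treg genes that the rule did not use.

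The Cxcr3-positive Tregs were deeper than their counterparts, with medians of 5363 UMIs and 2136 genes per cell, against 4269 UMIs and 1778 genes in Cxcr3-zero Tregs. A UMI of a cycling gene (Mki67, Top2a, Birc5 or Ube2c) was found in 27.0% of them and in 17.4% of Cxcr3-zero Tregs. The share was 26.2% in the 107 Cxcr3-zero Tregs with an Il1rl1 UMI and 31.6% in the 57 cells with Foxp3, Cxcr3 and Il1rl1 together. The part of depth in the results was not tested beyond the values at equal depth given beside them.

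In the tumor-lung library the Cxcr3-positive Tregs carried more transcripts of Ccl5, Nkg7, Gzmb and Ccr2 than Cxcr3-zero Tregs, and fewer of 9 of 13 naive and homing genes. Of 14 Treg identity genes 13 lay within 1.5-fold, as most genes did. Raw UMIs were summed over the cells of each group, 2691305 and 3073599 in all, and scaled to a common total as CPM, which here is a level per UMI sequenced and not per cell. Of 3952 genes with at least 200 UMIs over both groups, 60 (1.52%) were at least 1.5-fold higher in Cxcr3-positive Tregs and 53 (1.34%) at least 1.5-fold lower, and the median log2 ratio over these genes was 0.05. Genes of the fixed lists were counted from 50 UMIs on, and of all 7650 genes at that floor 3.22% were at least 1.5-fold higher and 4.29% at least 1.5-fold lower.

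**Figure D2:**
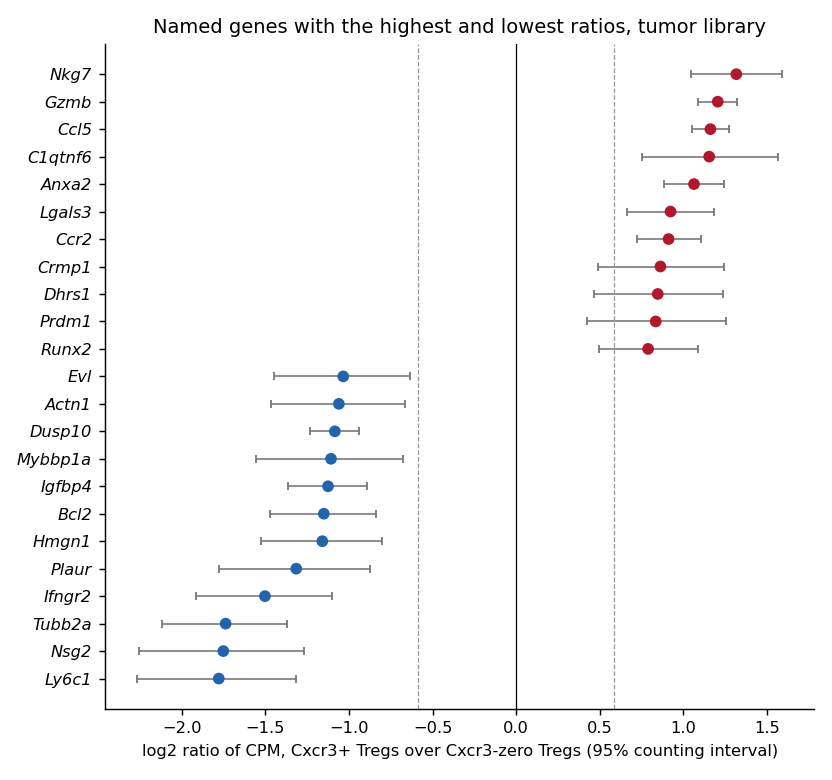
log2 ratio of CPM in Cxcr3-positive Tregs over Cxcr3-zero Tregs of the tumor-lung library for the named genes with the highest and lowest ratios (points), with 95% counting intervals as whiskers and dashed lines at 1.5-fold. Nkg7 stands at the top with a log2 ratio of 1.32 and Ly6c1 at the bottom with -1.78.

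Among effector genes, Ccl5, a chemokine that draws T cells and monocytes and is transcribed from chr11:83525778-83530518 (GRCm38), had 1990 UMIs in 232 of 433 Cxcr3-positive Tregs, against 1016 UMIs in 178 of 657 Cxcr3-zero Tregs. In CPM that was 739 (707 to 773) against 331 (311 to 352), a ratio of 2.24 (2.07 to 2.42). Nkg7, a protein of cytotoxic granules, had 362 UMIs in 111 Cxcr3-positive Tregs and 166 UMIs in 48 Cxcr3-zero Tregs, a ratio of 2.49 (2.07 to 3.01). Gzmb, the protease granzyme B, stood at 677 CPM (647 to 709) against 294 (275 to 314), a ratio of 2.31 (2.13 to 2.50). These transcripts were unevenly spread, and the tenth of Cxcr3-positive Tregs with the most Gzmb held 69.6% of its UMIs, with up to 97 in 1 cell. At equal depth a Ccl5 UMI was still found in 44.5% of Cxcr3-positive Tregs against 23.0% of Cxcr3-zero Tregs, and a Gzmb UMI in 37.9% against 19.1%. In naive-type cells of the same library these shares were 0.383% and 0.278%.

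Of the 14 genes of the cytotoxic and chemokine effector list, 6 had the 50 UMIs asked of a list gene, and 4 of those (Ccl5, Nkg7, Gzmb and the granule protease gene Ctsw) were at least 1.5-fold higher, with a median log2 ratio of 0.90. Eomes, a T-box factor of cytotoxic T cells, had 0 UMIs in both groups, Gzmk had 1 UMI in Cxcr3-positive Tregs and 0 in Cxcr3-zero Tregs, and Prf1, the pore-forming protein perforin, had 19 UMIs in Cxcr3-positive Tregs and 20 in Cxcr3-zero Tregs, a ratio of 1.09 (0.548 to 2.14).

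Receptor genes differed in both directions. Ccr2, a receptor for monocyte-attracting chemokines, had a ratio of 1.88 (1.65 to 2.15), and Ccr4, a chemokine receptor common on Tregs, one of 1.67 (1.37 to 2.05). On the other side stood Ccr7, which guides T cells into lymph nodes, with 828 UMIs in 124 Cxcr3-positive Tregs and 1780 UMIs in 253 Cxcr3-zero Tregs, a ratio of 0.531 (0.489 to 0.577). Ccr6 (0.621, 0.485 to 0.791) and S1pr1, the receptor used to leave lymph nodes (0.663, 0.572 to 0.768), were lower too. Of 13 measured chemokine receptor genes 3 were higher and 3 lower. Ccr8, a receptor of tumor and tissue Tregs, was at 610 CPM (581 to 640) against 573 (547 to 601), with overlapping intervals, and Cxcr6 at 34.6 (27.9 to 42.3) against 25.1 (19.8 to 31.3).

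The Th1 side of the label rested on few molecules. Tbx21 had 70 UMIs in 51 of 433 Cxcr3-positive Tregs (11.8%), against 32 UMIs in 26 of 657 Cxcr3-zero Tregs (3.96%), or 26.0 CPM (20.3 to 32.9) against 10.4 (7.12 to 14.7) and a ratio of 2.50 (1.62 to 3.92). Thinned to equal depth, a Tbx21 UMI remained in 5.15% (22 of 427, 3.26 to 7.70) against 2.68% of cells (16 of 596, 1.54 to 4.32), with overlapping intervals. Naive-type cells had 0.244%. Ifng, the Th1 cytokine itself, had 36 UMIs in 18 Cxcr3-positive Tregs, 11 of them in 1 cell, and 7 UMIs in 6 Cxcr3-zero Tregs. Of 17 measured Th1 pathway genes 2 were at least 1.5-fold higher and 1 lower, and their median log2 ratio of 0.09 stood beside 0.05 over all genes. The 2 higher ones were Tbx21 and Ly6c2, which encodes a form of the surface protein Ly6C, whose 79 UMIs came from 16 cells, against 12 UMIs from 8 Cxcr3-zero Tregs. The lower one was Ifngr2, a chain of the interferon-gamma receptor, at 25.3 CPM (19.6 to 32.0) against 71.6 (62.4 to 81.7). Stat4, a signal transducer of the IL-12 receptor, had a ratio of 0.894 (0.769 to 1.04). Il12rb2, the inducible chain of the IL-12 receptor, had 8 UMIs in Cxcr3-positive Tregs and 4 in Cxcr3-zero Tregs. A UMI of Tbx21 or Ifng was present in 62 Cxcr3-positive Tregs (14.3%) and 32 Cxcr3-zero Tregs (4.87%). The label's markers Tbx21 and Ccl5 were thus higher in CPM, Tbx21 with overlapping shares at equal depth. Most of the Th1 list lay within 1.5-fold, as most genes did, and these cells are called by their rule.

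Among mediators of suppression, 5 of 12 measured genes were at least 1.5-fold higher and 0 lower, with a median log2 ratio of 0.27. Beside Gzmb these were Il10, an anti-inflammatory cytokine, Entpd1, the ATP-degrading enzyme CD39, Lgals1, the T cell-inhibiting lectin galectin-1, and Prdm1, which encodes the effector Treg transcription factor Blimp-1. Il10 had 171 UMIs in 89 Cxcr3-positive Tregs and 114 UMIs in 63 Cxcr3-zero Tregs, a ratio of 1.71 (1.34 to 2.19), which was near 1 (log2 ratio 0.09) when the gate was applied after thinning. Lgals1 stood at 1562 CPM (1516 to 1610) against 906 (872 to 940). Entpd1 had a ratio of 1.71 (1.37 to 2.16) and Prdm1 one of 1.78 (1.34 to 2.38). Maf, a factor that drives Il10 in T cells, was at 221 CPM (204 to 240) against 137 (125 to 151). The largest ratios outside these lists belonged to C1qtnf6, at 2.23-fold, Anxa2, a membrane-binding annexin, at 2.09-fold, and Lgals3, another galectin, at 1.90-fold, followed by Crmp1, Dhrs1 and Runx2, a transcription factor, between 1.73-fold and 1.82-fold.

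Treg identity genes differed less. None of 14 Treg identity genes was at least 1.5-fold higher and 1 was lower, with a median log2 ratio of 0.08. Ikzf2, the Treg factor Helios, was at 610 CPM (581 to 640) against 557 (531 to 584), and Ctla4, the checkpoint receptor of Tregs, at 2066 (2012 to 2121) against 1560 (1516 to 1605), a ratio of 1.32 (1.27 to 1.38). Il2ra, the high-affinity IL-2 receptor chain, leaned the other way in CPM at 425 (400 to 450) against 482 (458 to 508). By detection Il2ra did not, with a UMI in 77.1% against 65.1% of cells, and in 53.2% against 51.0% at equal depth. The lower gene was Gpr83, found on resting Tregs, with 13 UMIs in 7 Cxcr3-positive Tregs and 68 UMIs in 40 Cxcr3-zero Tregs. For inhibitory and costimulatory receptors, 0 of 14 genes were beyond 1.5-fold in either direction, with Icos at 1.30-fold (1.23 to 1.38) and Tigit at 1.22-fold (1.15 to 1.28).

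The tissue Treg and IL-33 response list had 2 of 17 genes higher (Il10 and Maf) and 1 lower. The lower gene was Cd83, a surface protein of activated lymphocytes, at 204 CPM (187 to 222) against 346 (325 to 367). Gata3, the transcription factor tied to ST2-positive Tregs, had a ratio of 0.689 (0.616 to 0.770), just inside the threshold, and Areg, a tissue repair growth factor, one of 0.879 (0.806 to 0.959).

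Interferon-response genes leaned higher in Cxcr3-positive Tregs, although most lay within 1.5-fold, as most genes did. Of all genes at the UMI floor of list genes, 3.22% were at least 1.5-fold higher and 4.29% at least 1.5-fold lower. The median log2 ratio over those genes was 0.02. Of 19 measured type I interferon genes 4 (Isg20, Ifit3, Oas1a and Ifitm3) were at least 1.5-fold higher and 0 lower, with a median log2 ratio of 0.36. Ifi27l2a, which gave the most UMIs of the list, was within the threshold at 5866 CPM (5775 to 5958) against 4248 (4176 to 4322). Among 21 interferon-gamma-induced GTPase and antigen processing genes 2 were higher (Gbp6 at 1.90-fold and Iigp1 at 1.56-fold), 0 were lower, and the median was 0.22.

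Genes of naive and lymph node-homing T cells were mostly lower. Of 13 on that list 9 were at least 1.5-fold lower in Cxcr3-positive Tregs and 0 higher, with a median log2 ratio of -0.91. Tcf7, a factor that keeps T cells in a naive or memory state, had 102 UMIs in 36 Cxcr3-positive Tregs and 236 UMIs in 121 Cxcr3-zero Tregs. Klf2, which maintains S1pr1, stood at 176 CPM (161 to 193) against 345 (325 to 367), and Bach2, a repressor of effector genes, at 13.4 (9.37 to 18.5) against 37.7 (31.2 to 45.3). Of the 12 lowest named genes, Ly6c1 (ratio 0.292), Ifngr2 and Bcl2, a survival factor (0.451), were on a list. The others were Nsg2, Tubb2a, Plaur, Hmgn1, Igfbp4, Mybbp1a, Dusp10, a phosphatase of MAP kinases, and the actin-binding Actn1 and Evl, at ratios between 0.297 and 0.489. Igfbp4 was not lower when both groups had to hold at least 2 Foxp3 UMIs (log2 ratio 0.49). Cxcr3-positive Tregs had 77.3 CPM of Igfbp4 and 25.3 CPM of Ifngr2, Cxcr3-zero Tregs had 168.5 and 71.6, and naive-type cells of the same library had 1585 and 311. The part of naive-like cells among the Cxcr3-zero Tregs was not tested beyond the next values. When cells with a Ccr7 UMI were left out of both groups, a choice made after seeing these values, the median of the naive list was -0.049 and Actn1 had a log2 ratio of 0.13.

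In the proliferation list 4 of 10 genes were higher (Birc5, Ube2c, Stmn1 and Ccnb2) and 0 lower, with a median log2 ratio of 0.35. These rest on few cells, since Ccnb2 had 81 UMIs in 19 cells against 13 UMIs in 8 cells. With cycling cells left out the median was -0.30, and with the gate applied after thinning Birc5 and Ccnb2 had log2 ratios of -0.90 and -0.55. Immediate early genes, which also respond to tissue digestion, had 1 of 11 lower (Fosb) and a median of -0.38, and T cell receptor signal genes had 1 of 12 higher (Irf8) and a median of -0.22. Of 14 adhesion genes 1 was higher (Prdm1, which is on that list as well), of 12 IL-2 and STAT5 genes 1 was lower (Bcl2), and of 11 glycolysis genes 0 were beyond the threshold.

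**Figure D3:**
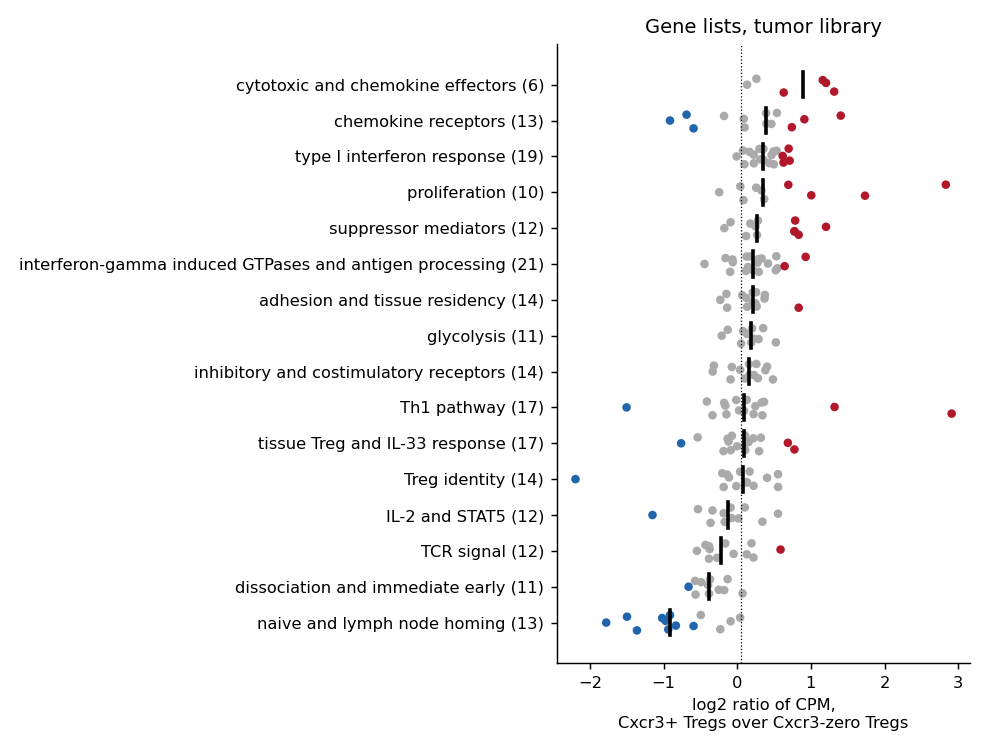
log2 ratio of CPM in Cxcr3-positive Tregs over Cxcr3-zero Tregs for each measured gene (points) of 16 gene lists, tumor-lung library, with the number of measured genes in brackets. Black bars are list medians, the dotted line is the median over all genes, and colored points lie beyond 1.5-fold. The cytotoxic and chemokine list has the highest median (0.90) and the naive and homing list the lowest (-0.91).

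Within the gate, the level of Cxcr3 did not order all of these genes alike. Gzmb was at 294, 471, 612 and 925 CPM in cells with 0, 1, 2 and 3 or more Cxcr3 UMIs. Its intervals do not overlap from one step to the next, but they treat the molecules of 1 cell as independent. Lgals1 followed the same order, at 906, 1235, 1308 and 2038 CPM, although the intervals at 1 and 2 UMIs overlapped. Ccl5 stood at 331 CPM at 0 UMIs and between 715 and 765 CPM in the 3 positive classes, whose intervals overlap. Tbx21 was likewise at 10.4 CPM at 0 UMIs and between 24.3 and 29.5 CPM above. The median depth of the cells grew along the same classes, at 4269, 4864, 5360 and 6313 UMIs. Without thinning, a Gzmb UMI was found in 22.8%, 39.1%, 52.04% and 51.05% of cells, so the last step in CPM was not seen in this share. Thinned to equal depth, a Gzmb UMI was found in 19.1%, 32.1%, 41.2% and 43.4% of cells.

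The Cxcr3-positive Tregs were not uniform in the effector genes. A Ccl5 UMI was present in 232 of them and absent in 201, at similar median depths of 5466 and 5257 UMIs. Of 2016 other genes with enough UMIs, 23 were at least 1.5-fold higher (1.14%) and 17 at least 1.5-fold lower (0.843%) in the Ccl5-positive cells. Nkg7 was 2.39-fold higher there (1.89 to 3.05), beside Litaf at 2.57-fold and Lyn, a Src-family kinase, at 2.37-fold. The Ccl5-zero cells had more Cxcl10, the interferon-induced ligand of CXCR3 itself, with 325 UMIs in 49 Ccl5-positive cells against 568 UMIs in 59 Ccl5-zero cells. In CPM Gzmb did not follow Ccl5, at 636 (596 to 679) in Ccl5-positive cells and 725 (679 to 774) in Ccl5-zero cells. By detection Gzmb leaned the other way, with a UMI in 49.6% of Ccl5-positive and 41.8% of Ccl5-zero cells. Ly6c2 lay almost wholly in the Ccl5-zero cells, with 8 UMIs in 4 Ccl5-positive cells against 71 UMIs in 12 Ccl5-zero ones. The Treg genes Foxp3 and Ctla4 had ratios of 1.04 (0.949 to 1.13) and 1.05 (0.992 to 1.10).

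The 362 Foxp3-zero cells with a Cxcr3 UMI of the tumor-lung library are CD4 T cells that share the receptor. Against them the Cxcr3-positive Tregs had more transcripts of Treg genes and fewer of Cd40lg and Tcf7. These groups were split on Foxp3, which the rule used, so the difference in Treg genes follows in part from the gate. Of 18 measured Th1 pathway genes 4 were higher and 5 lower. Of 3359 genes 303 (9.02%) were at least 1.5-fold higher and 154 (4.58%) at least 1.5-fold lower, and at the 50-UMI floor of list genes 11.7% and 6.63% were. A UMI of Ikzf2, Il2ra or Ctla4 was also found in 80.9% of the Foxp3-zero cells (293 of 362), with Ikzf2 alone in 25.1%, and whether Tregs without a detected Foxp3 UMI are among them was not tested. Of 13 measured Treg identity genes 12 were higher and 0 lower. Il2ra was at 425 CPM (400 to 450) against 39.6 (31.5 to 49.2), and Tnfrsf9, the costimulatory receptor 4-1BB, at 1101 (1062 to 1142) against 122 (107 to 138). Klrg1, a lectin receptor of effector lymphocytes, had a ratio of 8.88 (7.02 to 11.4) and Itgae, the epithelium-binding integrin CD103, one of 7.61 (5.53 to 10.7). The helper ligand Cd40lg was lowest, at 12.6 CPM (8.75 to 17.7) against 140 (125 to 157), and Tcf7 had a ratio of 0.145 (0.117 to 0.180).

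The effector genes split between these populations. In Cxcr3-positive Tregs Ccl5 stood at 739 CPM (707 to 773), close to the 688 (652 to 724) of the Foxp3-zero cells, and Gzmb was at 677 (647 to 709) against 242 (221 to 264). Nkg7 was at 134.5 CPM (121 to 149) against 305 (281 to 329), Ifng at 13.4 (9.37 to 18.5) against 61.4 (51.2 to 73.1), Cxcr6 at 34.6 (27.9 to 42.3) against 127 (112 to 143), and Ly6c2 at 29.4 (23.2 to 36.6) against 197 (179 to 217). Of 9 measured cytotoxic and chemokine effector genes 3 were higher and 5 lower. Tbx21 had 26.0 CPM (20.3 to 32.9) in Cxcr3-positive Tregs and 36.3 (28.5 to 45.5) in Foxp3-zero cells, with overlapping intervals.

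Against the 107 Tregs with Il1rl1 and without Cxcr3, which are part of the Cxcr3-zero Tregs above, 81 of 2424 genes (3.34%) were at least 1.5-fold higher and 53 (2.19%) at least 1.5-fold lower. At the 50-UMI floor of list genes the shares were 8.33% and 5.16%. Nkg7 was the most different, with 362 UMIs in 111 of 433 Cxcr3-positive Tregs and 7 UMIs in 3 of 107 Il1rl1-positive ones, a ratio of 11.3 (5.41 to 28.2). Ccl5 had a ratio of 3.50 (2.92 to 4.23). Gzmb and Ccr2 differed less than from all Cxcr3-zero Tregs. Gzmb was at 677 CPM (647 to 709) against 448 (396 to 506), and Ccr2 at 223 (206 to 242) against 169 (137 to 205.5). At equal depth a Gzmb UMI was found in 37.9% against 25.3% of cells, and a Ccr2 UMI in 29.0% against 24.2%. Ifit3 and Ifit1, antiviral proteins induced by type I interferon, had ratios of 3.32 (2.40 to 4.72) and 2.92 (2.18 to 3.98), and 9 of 19 type I interferon genes were higher with 0 lower. On the lower side were Dgat2, an enzyme of triglyceride synthesis (0.263, 0.205 to 0.337), Cd83 (0.360, 0.314 to 0.414) and Gata3 (0.468, 0.400 to 0.549). Areg was at 342 CPM (320 to 364) against 662 (597 to 731), and on the tissue Treg list 4 of 17 genes were lower and 1 higher. The naive and homing list did not differ as it did from all Cxcr3-zero Tregs, with 3 of 11 genes higher, 0 lower and a median log2 ratio of -0.02. The 107 cells supplied 586496 UMIs, which limits genes of low level.

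**Figure D4:**
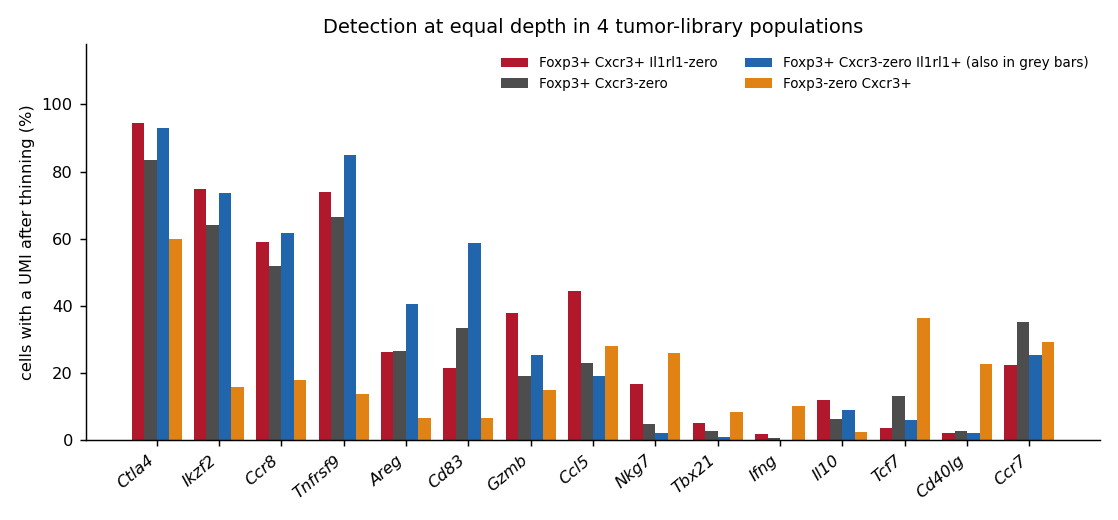
Percent of cells with at least 1 UMI of 15 genes after thinning every cell to 2417 UMIs, in Cxcr3-positive Tregs, Cxcr3-zero Tregs, their Il1rl1-positive subset and Foxp3-zero Cxcr3-positive cells of the tumor-lung library. Ccl5 reaches 44.5% in Cxcr3-positive Tregs and 23.0% in Cxcr3-zero Tregs, and Cd83 reaches 21.5% in Cxcr3-positive Tregs against 58.6% in the Il1rl1-positive subset.

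The 5 Cxcr3-positive Tregs of the normal-lung library held between 2456 and 8959 UMIs, 30060 in all. Each held between 2 and 6 Foxp3 UMIs and between 2 and 10 Ctla4 UMIs, and Gzmb and Tbx21 were at 0 in all 5. A single cell held 5 Ccl5 and 4 Nkg7 UMIs together with 12 Cxcr3 UMIs, and another held 16 Ccr7 UMIs. For Gzmb, 0 of 30060 UMIs has an exact Poisson interval of 0 to 122.7 CPM. Of 445 genes measurable against the 197 Cxcr3-zero Tregs of that library, 107 (24%) were beyond 1.5-fold upward and 68 (15.3%) downward. Between tumor-lung and normal-lung members 543 of 2048 genes (26.5%) were at least 1.5-fold higher and 373 (18.2%) at least 1.5-fold lower. Tnfrsf9 led the higher side with 2964 UMIs in the tumor-lung members and 1 UMI in the normal-lung ones, a ratio of 33.1 with an interval from 5.94 to 1308, followed by Id2, Bst2 and Il2ra with 1 normal-lung UMI each. Single genes are not read further from these 5 cells.

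The rule used T cell receptor contigs only to remove likely doublets, so the receptor sequences themselves are independent of it. A receptor with 1 beta and 1 or 2 alpha chains was found in 364 of 433 Cxcr3-positive Tregs (84.1%) and 485 of 657 Cxcr3-zero Tregs (73.8%) of the tumor-lung library. Cells with identical CDR3 nucleotides in both chains were taken as a clone, and a clone of at least 2 kept cells as expanded. Expanded clones held 139 of the 364 Cxcr3-positive Tregs (38.2%, 33.2 to 43.4) and 123 of the 485 Cxcr3-zero Tregs (25.4%, 21.6 to 29.5). The share was 34.9% (24.8 to 46.2) in Il1rl1-positive Cxcr3-zero Tregs and 22.8% (18.2 to 28.0) in Foxp3-zero Cxcr3-positive cells. With the gate applied after thinning it was 39.1% (32.0 to 46.6) in Cxcr3-positive Tregs and 31.4% (27.4 to 35.6) in Cxcr3-zero Tregs, whose intervals overlap. None of the 5 normal-lung members was in an expanded clone.

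Clones crossed the Cxcr3 gate as it was measured. In the tumor-lung library a Cxcr3 UMI was found in 42.7% of Foxp3-positive cells. After thinning to 2417 UMIs it was found in 26.55% of the cells that still held a Foxp3 UMI. How many Cxcr3-zero Tregs held Cxcr3 transcripts that were not captured was not tested. Mixed clones are therefore not read as a change of state. Of 85 expanded clones with a Cxcr3-positive Treg, 21 held only such cells, 55 also held Cxcr3-zero Tregs, and 71 were made of Foxp3-positive cells alone. Counting all pairs within clones, the clone-mates of Cxcr3-positive Tregs were Cxcr3-positive Tregs in 53.9% of 319 pairs, Cxcr3-zero Tregs in 34.2% and Foxp3-positive in 92.5%. The clone-mates of Cxcr3-zero Tregs were Cxcr3-positive Tregs in 41.3% of 264 pairs and Cxcr3-zero Tregs in 41.7%. Among mates from these populations alone, 61.2% of those of Cxcr3-positive Tregs were Cxcr3-positive Tregs, against 49.8% for Cxcr3-zero Tregs. Without the largest clone of Cxcr3-positive Tregs the first value was 51.6%, close to the 49.8% for Cxcr3-zero Tregs. Expanded clones of the library held 139 Cxcr3-positive and 123 Cxcr3-zero Tregs in all. Whether clones keep to one side of the gate was not tested.

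**Figure D5:**
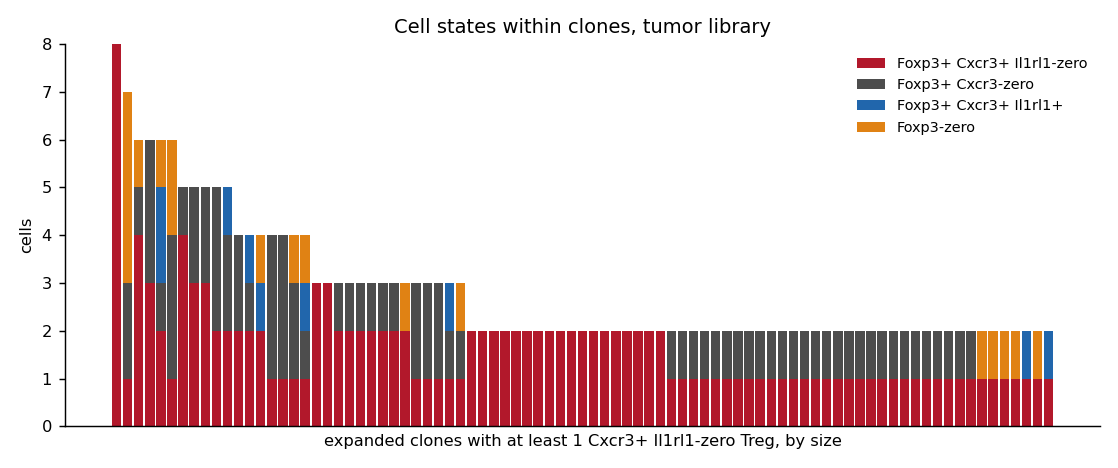
Number of cells of each state (stacked bars, y axis in cells) in each of the 85 expanded tumor-lung clones with at least 1 Cxcr3-positive Treg, ordered by clone size. The largest clone has 8 cells, all Cxcr3-positive Tregs, and 55 clones also hold Cxcr3-zero Tregs.

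The largest clone had 8 cells, all Cxcr3-positive Tregs. It used TRAV12-2 with TRAJ48 (alpha locus, chromosome 14) and TRBV1 with TRBJ1-3 (beta locus, chromosome 6). All 8 cells held Nkg7, with 1 to 4 UMIs, 7 held Ccl5, with 4 to 43 UMIs, and 2 held Tbx21. Another clone of 6 cells, 3 of them Cxcr3-positive and 3 Cxcr3-zero Tregs, joined the same alpha segments to TRBV1 and TRBJ2-5. Their CDR3 sequences are shown because these clones, which share no chain, have CDR3s of equal length in both and the same V segments, with the first and last codon in capitals.
Clone of 8 cells, alpha CDR3: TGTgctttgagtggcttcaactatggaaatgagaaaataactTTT
Clone of 6 cells, alpha CDR3: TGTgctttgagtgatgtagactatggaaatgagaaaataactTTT
Clone of 8 cells, beta CDR3: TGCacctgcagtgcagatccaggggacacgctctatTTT
Clone of 6 cells, beta CDR3: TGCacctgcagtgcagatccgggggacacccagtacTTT

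Another set of similar receptors held more cells. Of the 6 clones with at least 5 cells and at least 3 Cxcr3-positive Tregs, 3 used TRBV3 with TRBJ2-1 and beta CDR3s of 15 codons that encode the same protein apart from codon 5. Searching all kept cells for this pattern, a step taken after these clones were seen, found 32 cells of the tumor-lung library with 10 different beta CDR3 nucleotide sequences and 16 different sets of alpha chains. They were 17 Cxcr3-positive Tregs, 11 Cxcr3-zero Tregs, 3 Foxp3-positive cells with both Cxcr3 and Il1rl1, and 1 Foxp3-zero cell. The clones that gave the pattern were picked for their Cxcr3-positive Tregs and supplied 4, 3 and 3 of the 17, so the split between Treg groups is fixed in part by that choice and is not compared. The 32 cells were among 6333 tumor-lung cells with a beta chain, and 31 of them among 954 Foxp3-positive ones. The normal-lung library held 1 such cell, a Foxp3-zero one, among 6426 cells with a beta chain. Of its 187 Foxp3-positive cells with a beta chain 0 had the pattern (0 to 1.95%). The pattern was taken from tumor-lung Treg clones, so its shares by library and by Foxp3 are also fixed in part and are not compared. The 3 sequences held by more than 2 cells are shown to let the differences be seen, with codon 5 in capitals.
TRBV3, 11 cells, 7 of them Cxcr3-positive Tregs: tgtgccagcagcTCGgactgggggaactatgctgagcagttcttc
TRBV3, 6 cells, 4 of them Cxcr3-positive Tregs: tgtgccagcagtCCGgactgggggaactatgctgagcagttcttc
TRBV3, 4 cells, 2 of them Cxcr3-positive Tregs: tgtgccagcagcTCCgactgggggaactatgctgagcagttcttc

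The first of these sequences belonged to clones of 5 cells each that differ in the alpha chain, which joins TRAV6-6 to TRAJ27 in one and to TRAJ34 in the other. In both clones Tbx21 was at 0 in all 5 cells and Ccl5 was found in 2 of them. The clone of 5 cells with the next sequence also had Tbx21 at 0, while Ccl5 was found in all 5 of its cells, with 1 to 53 UMIs. Over all receptors, TRBV1 was used by 13.1% of Cxcr3-positive Tregs (9.85 to 16.9) and 6.99% of Cxcr3-zero Tregs (4.97 to 9.51). Counted once per distinct receptor, it was 11.0% (34 of 310, 7.72 to 15.0) against 7.01% (31 of 442, 4.82 to 9.81), with overlapping intervals. TRBV19, the most frequent segment, was used by 20.9% of Cxcr3-positive Tregs and 19.5% of Cxcr3-zero Tregs.

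Markers of other cells were absent or spread over both groups. Cd8a, the Th2 cytokines Il4, Il5 and Il13, the gamma-delta T cell genes, red cell and platelet genes, Krt8, Sftpc and Cldn5 had 0 UMIs in Cxcr3-positive Tregs. Over its 4 genes the B cell list held 69 UMIs (25.6 CPM) in Cxcr3-positive Tregs and 48 UMIs (15.6 CPM) in Cxcr3-zero Tregs, with Ms4a1 at 0 in both. The CD8 T cell list held 76 UMIs, all of Cd8b1, in 14.5% of Cxcr3-positive Tregs, against 76 UMIs in 9.74% of Cxcr3-zero Tregs. The epithelial list held 90 UMIs in 15.5% of Cxcr3-positive Tregs, mostly Epcam, against 127 UMIs in 15.5% of Cxcr3-zero Tregs. Pecam1, the only detected gene of the endothelial list, held 126 UMIs in 22.2% of Cxcr3-positive Tregs, against 190 UMIs in 21.8% of Cxcr3-zero Tregs. The myeloid list held 187 CPM in Cxcr3-positive Tregs against 173 CPM in Cxcr3-zero Tregs, mostly Cst3, with C1qa and C1qb at 0 in both. The part of cells caught together with a Treg in these differences was not tested beyond the receptor filter.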

How the data were processed

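The gene expression files held UMI counts that the authors deposited without scaling, made with Cell Ranger 3.1.0 on mm10, per the submitters' processing notes and the file headers. The deposited contig tables gave UMI counts, read counts and CDR3 sequences per receptor chain, per the file headers; no assembler version is named there. A total of 30934 of 31053 gene identifiers matched a RefSeq-based GRCm38.p6 table, which supplied coordinates.

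Barcodes were kept at 500 genes or more and mitochondrial UMIs below 10% (120 of 7788 tumor-lung and 61 of 7745 normal-lung barcodes failed), and those with over 2 productive alpha or over 1 productive beta chain were then removed as likely doublets (533 and 602). No other doublet caller was used. The members and gene lists were chosen with earlier results of these data known.

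UMIs were summed per group (python 3.11.15, numpy 2.4.6, scipy 1.17.1). Intervals were exact Poisson for CPM, exact conditional on the total for ratios and Clopper-Pearson for shares, at 95%. In ratios, 0 UMIs in a group counted as 3. A gene was called beyond 1.5-fold, with at least 200 UMIs over both groups, or 50 for list genes. For equal depth each cell was thinned to 2417 UMIs, the 10th percentile of normal-lung cells, and shallower cells were left out (6 Cxcr3-positive and 61 Cxcr3-zero Tregs). Named genes were the 12 highest and 12 lowest ratios (8 in other comparisons) with UMIs in at least 20 cells of the higher group, without the rule's genes, receptor, immunoglobulin, mitochondrial, ribosomal, hemoglobin and sex-marker genes, plus the list genes. Some genes that enter these counts are not reported here by name. The ratio, interval and thinning steps were tested on simulated data. With 1 library per tissue no test and no paired comparison was made.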

Additional observations from a re-analysis of the deposited data

Results flagged for a closer look

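Areg, Bhlhe40 and Tgfb1 were flagged because their ratio of Cxcr3-positive over Cxcr3-zero Tregs pointed in opposite directions in the libraries. They are not given as a full set, and the share of all genes with opposite directions is not given. Of 445 genes with at least 200 UMIs in the normal-lung library, 24% were at least 1.5-fold higher in its 5 members and 15.3% at least 1.5-fold lower. Areg had a log2 ratio of -0.19 in the tumor-lung library, from 919 against 1194 UMIs, and of 1.65 in the normal-lung library, from 17 against 151 UMIs. In the normal-lung members 15 of the 17 Areg UMIs came from 1 cell. Bhlhe40, a transcription factor of activated T cells, had a log2 ratio of -0.18 in the tumor-lung library and 1.48 in the normal-lung library (12 against 120 UMIs). Tgfb1, a suppressive cytokine, had a log2 ratio of -0.17 in the tumor-lung library and 1.42 in the normal-lung library (12 against 125 UMIs). Each library is 1 sample and the normal-lung values rest on 5 cells, so the difference between the libraries was not tested.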

How the results depend on the processing

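No paired analysis was possible because each tissue has 1 library and no result comes from a test. Counts of genes beyond 1.5-fold between Cxcr3-positive and Cxcr3-zero Tregs (60 higher, 53 lower) depended on the gate and on the number of UMIs asked for: 91 and 87 with at least 2 Cxcr3 UMIs, 32 and 32 with at least 2 Foxp3 UMIs, 39 and 20 with cells thinned after the gate, 26 and 17 with the gate applied after thinning, 246 and 328 at 50 UMIs, 27 and 14 at 500, 2174 and 2018 at 1, and 28 and 30 without Ccr7-positive cells, an alternative chosen after seeing the data. The proliferation median was -0.30 without cycling cells and the naive list median -0.049 without Ccr7-positive cells. Igfbp4 turned to a log2 ratio of 0.49 with at least 2 Foxp3 UMIs, Actn1 to 0.13 without Ccr7-positive cells, and Ccnb2 and Birc5 to -0.55 and -0.90 with the gate applied after thinning. Ccl5, Nkg7, Gzmb and Tbx21 kept log2 ratios between 0.90 and 1.72 under the 14 alternatives. Il10 had 0.09 with the gate applied after thinning. Which genes ranked among the 12 highest and 12 lowest also changed. With cells thinned after the gate 4 of the highest and 3 of the lowest kept such a rank, among 1852 genes. With the gate applied after thinning 3 and 2 did, among 1569 genes. The cause of these shifts was not tested.

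Against Foxp3-zero cells, 89 genes were lower with at least 2 Cxcr3 UMIs, and 177 were higher and 60 lower with thinned cells. Against Il1rl1-positive Tregs thinning gave 48 and 27. Between tumor-lung and normal-lung members the counts were 340 and 189 with at least 2 Cxcr3 UMIs, 208 and 136 thinned, 211 and 107 at 500 UMIs, and 2818 lower at 50 UMIs. The tumor-lung share of Foxp3-positive cells in the gate was 21.0% with at least 2 Cxcr3 UMIs, 40.8% with at least 2 Foxp3 UMIs and 24.9% after thinning. Clones by beta chain alone gave 44.0% expanded Cxcr3-positive Tregs, and the gate after thinning 31.4% expanded Cxcr3-zero Tregs.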
